A study of Mus musculus with 10 samples.

Results

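E2F transcription factors and the cyclins, kinases and other genes that drive the cell cycle were followed through 10 mouse liver samples. The 10 genes were listed by name (E2f1, E2f2, E2f7, E2f8, Ccnd1, Ccne2, Ccna2, Cdk1, Mki67 and Wee1), and each was read from the transcript cluster that carries its symbol alone. That gave 9 genes of the 22180 named genes on the array; the cluster of Ccne2, the gene of cyclin E2, carries a second symbol and was not used. The list was chosen by measured values as well as by function, with earlier results of these data known. E2f8 was selected on its higher level with FST288 in livers of mice on a high-fat diet. The values of that comparison are therefore given as a description without a test. The p-values of the other comparisons are not those of a list fixed beforehand.

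Each sample was hybridised to 1 whole-transcript array, and the values are log2 RMA signals. All livers came from fasted male mice about 2 weeks after infection with an adeno-associated virus, AAV-TBG, whose TBG promoter is active in hepatocytes. LTKO FST288 livers (n = 2) and LTKO GFP livers (n = 2) came from mice labelled LTKO that received the vector with follistatin isoform FST288, a secreted antagonist of activins, or with the control cargo GFP. HFD FST288 livers (n = 3) and HFD GFP livers (n = 3) came from wild-type mice maintained on a high-fat diet that received the same vectors. LTKO is not explained in the labels; it is known as a liver triple knockout of the insulin signalling genes Irs1, Irs2 and Foxo1. The labels give neither the diet of the LTKO mice, the ages, nor the driver of the deletion, so genotype and diet cannot be told apart between LTKO and HFD livers.

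As background, E2F factors switch on genes of DNA synthesis when cyclin-dependent kinases release them from retinoblastoma proteins. E2F1 and E2F2 are activators, while E2F7 and E2F8 are atypical members that repress E2F targets. In liver, E2F7 and E2F8 are known for their part in making hepatocytes polyploid. Cyclin D1 (Ccnd1) acts early in the cycle, cyclin A2 (Ccna2) with its kinase CDK1 (Cdk1) acts later, WEE1 holds CDK1 inactive, and Ki-67 (Mki67) is a mark of dividing cells. Adult liver cells divide rarely, and Wee1 is also known as an output gene of the liver's circadian clock.

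Promoter sequences were searched for motifs known from cell cycle genes. Windows of the 250 bases before a transcript start were found by symbol in RefSeq's GRCm38.p6 annotation for 6 of the 9 genes; those of E2f8, the gene that chose the list, of its closest relative E2f7 and of Cdk1, a classical cell cycle gene, are printed 5′ to 3′ on the gene's own strand. Capitals mark 3 kinds of motif on either strand, namely the E2F motif (TTTCCCGC, TTTGGCGC, TTTCGCGC or TTTGCCGC), the cell cycle homology region TTTGAA and the CCAAT box. No capitals of different motifs overlap.
E2f8 (chr7:48881597-48881846, minus strand): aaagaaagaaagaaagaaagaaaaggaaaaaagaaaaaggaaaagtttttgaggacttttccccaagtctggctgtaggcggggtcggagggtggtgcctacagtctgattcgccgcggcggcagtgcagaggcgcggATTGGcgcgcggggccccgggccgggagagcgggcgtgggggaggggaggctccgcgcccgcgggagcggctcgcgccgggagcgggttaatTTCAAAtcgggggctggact
E2f7 (chr10:110745189-110745438, plus strand): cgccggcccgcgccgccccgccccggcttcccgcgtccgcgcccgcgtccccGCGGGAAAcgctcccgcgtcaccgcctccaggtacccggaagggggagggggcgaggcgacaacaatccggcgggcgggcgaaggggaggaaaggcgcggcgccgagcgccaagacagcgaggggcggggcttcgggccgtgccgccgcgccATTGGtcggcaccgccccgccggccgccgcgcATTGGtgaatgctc
Cdk1 (chr10:69352913-69353162, minus strand): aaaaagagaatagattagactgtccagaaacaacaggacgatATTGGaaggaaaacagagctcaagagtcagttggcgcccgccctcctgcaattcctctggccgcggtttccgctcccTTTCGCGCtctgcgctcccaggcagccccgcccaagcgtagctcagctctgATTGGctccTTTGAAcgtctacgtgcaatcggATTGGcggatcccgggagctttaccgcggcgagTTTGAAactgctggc

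The E2f8 window held TTTGAA on the opposite strand, 20 to 15 bases before the start, and a CCAAT box on the opposite strand 112 to 108 bases before it. That window lies inside the annotated E2f8 gene (48866429 to 48882073), before an inner start. The bases before the outermost start of E2f8 were not searched. Among the windows not printed here, that of E2f1 and the inner window of E2f2 (136180532 to 136180781) also lie inside their genes. The Mki67 window reaches into its gene. The Cdk1 window held the E2F motif TTTCGCGC 131 to 124 bases before the start and TTTGAA at 71 to 66 and at 15 to 10 bases. The E2f7 window held TTTCCCGC on the opposite strand, 198 to 191 bases before the start. Of all 32851 promoter windows of this length, 1.86% held an E2F motif, 16.0% held TTTGAA and 33.8% held a CCAAT box. The FoxO motif TGTTTAC, present in 3.17% of windows on either strand, had no match in those of these 6 genes. A match is a description of these letters alone.

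The label checks came first. Follistatin transcript (Fst) read 6.74 and 6.85 in LTKO FST288 livers, against 5.30 and 5.39 in LTKO GFP livers, and 5.78 to 6.80 in HFD FST288 livers, against 5.22 to 5.34 in HFD GFP livers. Foxo1 lay between 4.58 and 5.15 in LTKO livers of either vector and between 6.60 and 6.86 in HFD livers. The 9 hepatocyte markers, Alb among them, had medians of 12.17 to 12.43 on the 10 arrays. Libraries that stood apart were HFD FST288 replicates 2 and 3, where the median of 9 pancreatic acinar markers was 8.29 and 7.32 against 2.19 to 2.55 on the other 8 arrays, and LTKO FST288 replicate 2, where the median of 7 Kupffer cell and macrophage markers was 7.59 against 5.55 to 6.13 on the others. The array medians of named genes lay between 3.10 and 3.17, and at that level a fold is not an exact measure.

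E2f8 was low in HFD GFP livers alone. Its log2 values were 6.21 and 5.85 in LTKO FST288 livers, 6.26 and 5.73 in LTKO GFP livers, 6.47, 6.47 and 6.28 in HFD FST288 livers, and 4.99, 4.77 and 5.29 in HFD GFP livers. All 7 arrays of the first 3 groups lay above all 3 HFD GFP arrays and the HFD FST288 arrays lay above all LTKO arrays, the lowest of them (6.28) only just above the highest LTKO array (6.26). The HFD FST288 mean of 6.41 ± 0.11 against 5.02 ± 0.26 in HFD GFP livers (SD, n = 3 each) is 2.62-fold, a difference that chose the gene and is not tested. HFD FST288 replicate 1, with acinar markers at 2.47, read the same 6.47 as replicate 2, with acinar markers at 8.29. Without replicates 2 and 3 the difference was 1.45, and with the acinar markers as a covariate 1.43. The part of acinar tissue in the E2f8 difference was not tested further.

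In LTKO livers, which are not part of the comparison that chose E2f8, no difference in E2f8 was found between the vectors. The means were 6.03 ± 0.26 in LTKO FST288 livers and 6.0 ± 0.37 in LTKO GFP livers (SD, n = 2 each), a log2 difference of 0.03 ± 0.20 (SE; limma, adjusted p = 0.979). The 95% interval of the difference ran from -0.40 to 0.46. The difference between the backgrounds was not tested, because it contains the comparison that chose the gene. Between LTKO GFP and HFD GFP livers E2f8 was 0.98 higher on the log2 scale (means 6.0 and 5.02), and between LTKO FST288 and HFD FST288 livers the difference was -0.38 (means 6.03 and 6.41). Both values share arrays with the comparison that chose E2f8 and carry no test.

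**Figure D1:**
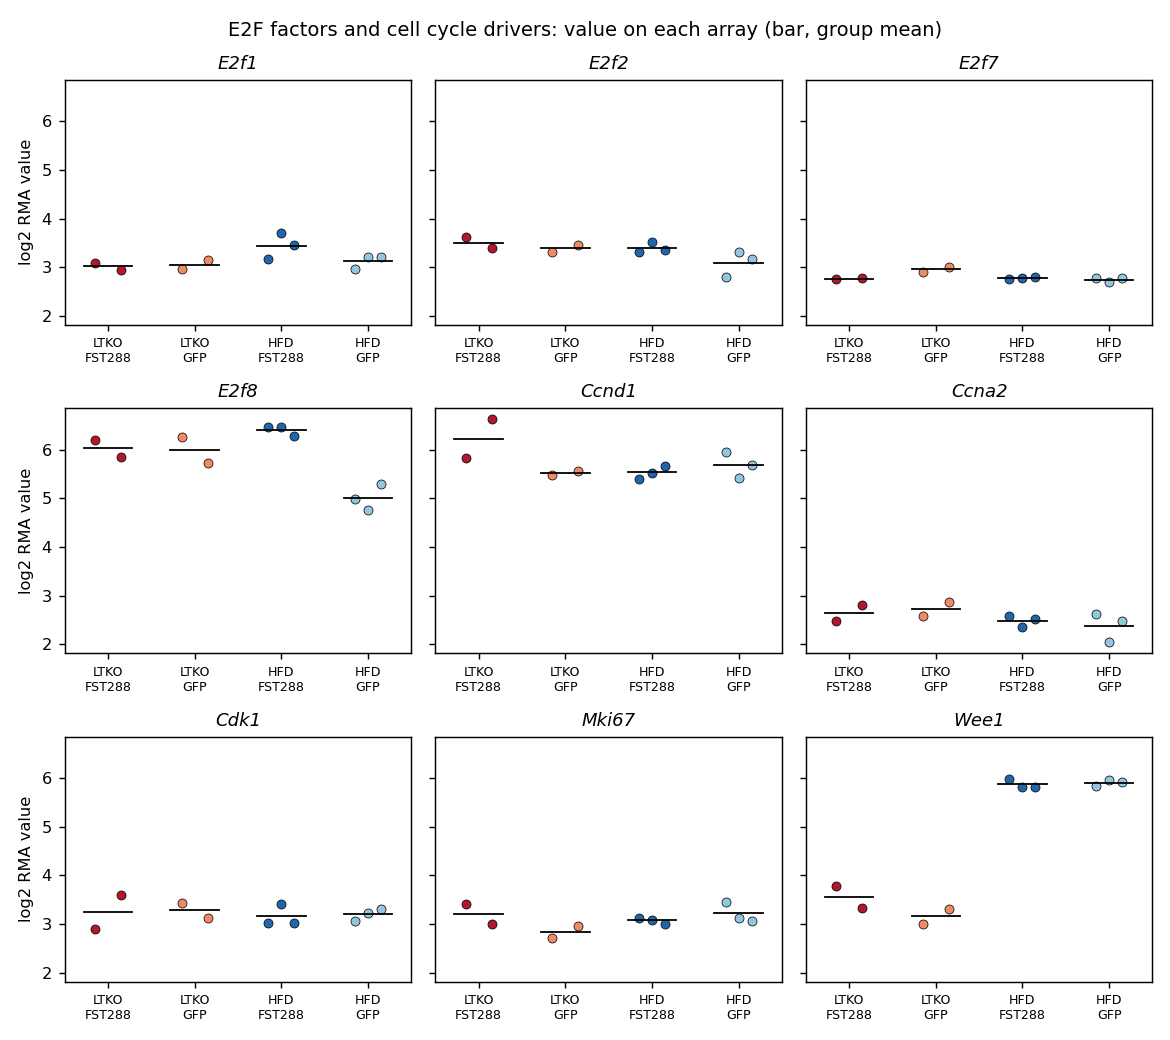
Log2 RMA value (y axis) of each of the 9 genes on each array, by group (x axis: LTKO FST288, LTKO GFP, HFD FST288, HFD GFP); points are arrays and bars are group means. E2f8 is lowest on the 3 HFD GFP arrays (4.77 to 5.29), Wee1 lies at 3.01 to 3.78 on the LTKO arrays and at 5.82 to 5.99 on the HFD arrays, and Ccnd1 is highest on 1 LTKO FST288 array (6.63).

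The other atypical factor did not follow E2f8. E2f7 read 2.75 and 2.77 in LTKO FST288 livers, 2.90 and 3.00 in LTKO GFP livers, 2.76 to 2.79 in HFD FST288 livers and 2.69 to 2.77 in HFD GFP livers. All these values lie below the array medians. The LTKO groups did not overlap, with a difference of -0.19 ± 0.14 (limma, adjusted p = 0.72), and 21.1% of all named genes were likewise lower without overlap.

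Of the activating factors, E2f1 read 3.09 and 2.94 in LTKO FST288 livers, 2.95 and 3.14 in LTKO GFP livers, 3.17, 3.70 and 3.46 in HFD FST288 livers, and 2.97, 3.21 and 3.21 in HFD GFP livers. Its 2 highest values were on the HFD FST288 arrays with acinar transcripts. The difference between HFD FST288 and HFD GFP livers was 0.31, and 0.03 without those arrays; the part of acinar tissue in it was not tested further. E2f2 lay between 3.31 and 3.61 on the LTKO arrays, between 3.31 and 3.51 in HFD FST288 livers and between 2.79 and 3.32 in HFD GFP livers. Neither factor passed the test in LTKO FST288 against LTKO GFP livers (log2 differences of -0.03 and 0.12; adjusted p = 0.98 and 0.896) or between LTKO and HFD livers with GFP (-0.09 and 0.29; adjusted p = 0.827 and 0.322) or with FST288 (-0.42 and 0.11; adjusted p = 0.163 and 0.804).

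Wee1 fell in LTKO livers with either vector. Its values were 3.78 and 3.33 in LTKO FST288 livers and 3.01 and 3.31 in LTKO GFP livers, against 5.99, 5.83 and 5.82 in HFD FST288 livers and 5.85, 5.96 and 5.93 in HFD GFP livers. The 4 LTKO arrays lay near the array medians and the 6 HFD arrays far above them, without overlap. With GFP the log2 difference was -2.75 ± 0.15 (means 3.16 and 5.91; limma, adjusted p = 5.88e-08), a 6.73-fold fall and the 28th lowest difference of the 22180 genes. With FST288, on separate arrays, it was -2.33 ± 0.15 (means 3.55 and 5.88; adjusted p = 3.17e-07), a 5.02-fold fall.

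Of the 8 genes other than E2f8, Wee1 was the 1 that passed the test between LTKO GFP and HFD GFP livers, where 6.4% of all named genes were lower and 6.69% higher. Both Wee1 calls held in all 19 alternative settings, with adjusted p of at most 2.64e-06 with GFP and 0.000127 with FST288. Between HFD FST288 and HFD GFP livers Wee1 differed by -0.03 (means 5.88 and 5.91). In LTKO livers the difference between the vectors was 0.39 ± 0.17, with an adjusted p of 0.454 and an unadjusted p of 0.034.

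Cyclin D1 gave the other call, in LTKO FST288 livers, and it rested on 1 array. Ccnd1 read 5.83 and 6.63 in LTKO FST288 livers, 5.49 and 5.57 in LTKO GFP livers, 5.41, 5.53 and 5.67 in HFD FST288 livers, and 5.96, 5.42 and 5.69 in HFD GFP livers. The value of 6.63 stood apart and belongs to LTKO FST288 replicate 2; the other array of that group lay below the highest HFD GFP array. Against HFD FST288 livers the log2 difference was 0.69 ± 0.21 (means 6.23 and 5.54; limma, adjusted p = 0.0482), where 5.05% of all named genes were higher and 5.29% lower. The call was lost in 14 of 19 alternative settings, and without LTKO FST288 replicate 2 the difference was 0.29 (adjusted p = 0.517).

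Against LTKO GFP livers the difference in Ccnd1 was 0.70 ± 0.22 (means 6.23 and 5.53) with an adjusted p of 0.306, and none of the 9 genes was called in that comparison, where 0.167% of all named genes were; at an unadjusted p under 0.05 there were 2 of the 9, Ccnd1 and Wee1, where 9.98% of all named genes were. Without LTKO FST288 replicate 1, where the group is that 1 high array and is assumed to vary like the others, the difference was 1.11 (adjusted p = 0.0165). Markers of Kupffer cells moved with this array. All 7 were higher in LTKO FST288 than in LTKO GFP livers, by 0.28 to 1.92 on the log2 scale with none called, and their median was 5.98 and 7.59 on the LTKO FST288 arrays against 5.91 and 6.08 on the LTKO GFP arrays. Between LTKO FST288 and HFD FST288 livers, the comparison of the Ccnd1 call, 5 of the 7 were called higher, where 5.05% of all named genes were. The differences of all 7 ran from 0.38 to 2.53 with a median of 0.88. The median of 7 T and B cell markers was also highest on LTKO FST288 replicate 2, at 3.31 against 2.56 to 2.96 on the other arrays. The part of any of these cells in the Ccnd1 value was not tested. In a bulk sample more cells of a type and more RNA per cell cannot be told apart.

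The genes of the later cycle stayed near or below the array medians. Ccna2 ran from 2.47 to 2.80 in LTKO FST288 livers, from 2.57 to 2.87 in LTKO GFP livers, from 2.35 to 2.58 in HFD FST288 livers and from 2.04 to 2.61 in HFD GFP livers. Cdk1 ran from 2.90 to 3.59 in LTKO FST288 livers, from 3.13 to 3.44 in LTKO GFP livers, from 3.02 to 3.42 in HFD FST288 livers and from 3.07 to 3.30 in HFD GFP livers. Mki67 lay between 3.01 and 3.42 in LTKO FST288 livers, at 2.71 and 2.95 in LTKO GFP livers, between 3.01 and 3.13 in HFD FST288 livers and between 3.07 and 3.46 in HFD GFP livers. The Ccna2 and Cdk1 groups overlapped in each of the 3 tested comparisons, while both LTKO GFP arrays lay below all other arrays for Mki67. None of the 3 genes passed the test in those comparisons. For Mki67 the difference between LTKO FST288 and LTKO GFP livers was 0.38 ± 0.19 (limma, adjusted p = 0.538), and 16.8% of all named genes were likewise higher without overlap. The lowest adjusted p was 0.182, for Mki67 in LTKO GFP against HFD GFP livers (-0.38 ± 0.17, groups without overlap; 19.2% of all named genes were lower without overlap).

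Between HFD FST288 and HFD GFP livers, 1 of the 9 genes, E2f8, was higher without overlap of the groups and 0 were lower. Of the 22180 named genes, 2062 (9.3%) were higher and 2021 lower without overlap. E2f8 was chosen on this comparison. The differences of the other 8 genes ran from -0.15 to 0.31. Over the 10 arrays E2f8 had a Pearson r of 0.60 with E2f2, 0.33 with E2f1, 0.25 with E2f7 and -0.02 with Cdk1, and Ccna2 and Cdk1, whose proteins act together, one of 0.07. These are descriptions over arrays of 4 groups.

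**Figure D2:**
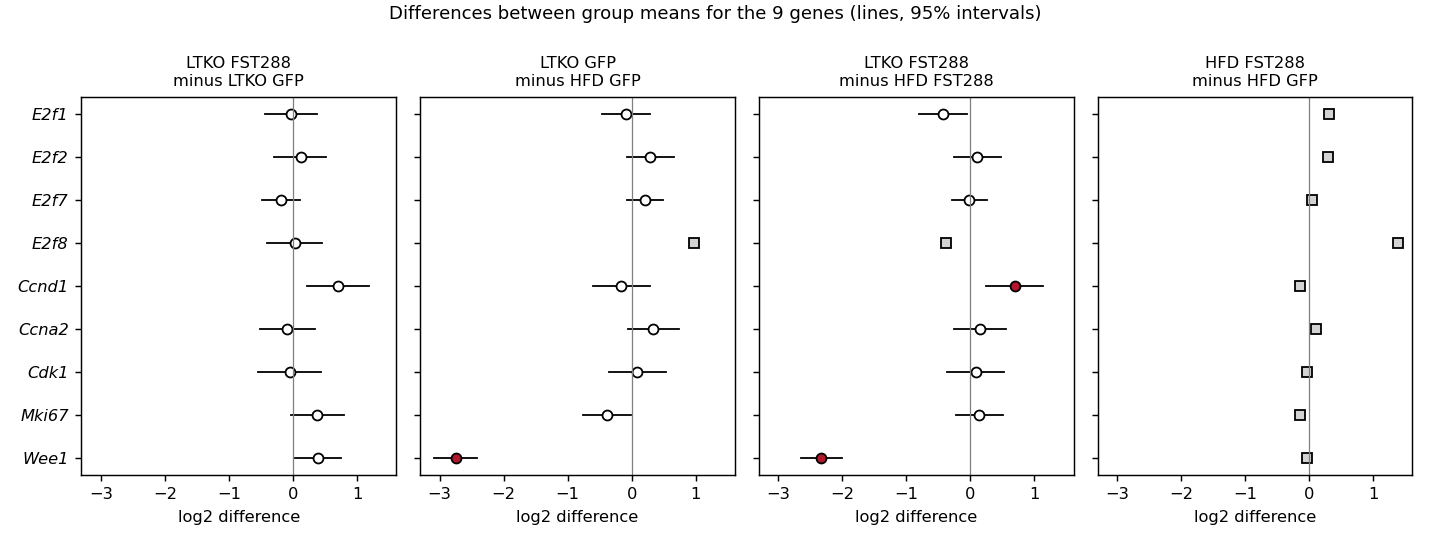
Log2 difference between group means (x axis) for each of the 9 genes (y axis) in 4 comparisons. Circles with lines are tested differences with 95% intervals, filled red where the adjusted p was under 0.05; grey squares are differences given without a test. Wee1 is the far left point in both comparisons of LTKO with HFD livers (-2.75 and -2.33), and E2f8 lies at 0.03 in LTKO livers and at 1.39 in HFD livers.

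Beyond the listed drivers, 79 other cell cycle genes were measured, of which 6 rose and 8 fell in LTKO GFP against HFD GFP livers, and 6 rose and 3 fell in LTKO FST288 against HFD FST288 livers. Of all named genes 6.69% rose and 6.4% fell with GFP, and 5.05% rose and 5.29% fell with FST288. All 3 genes of retinoblastoma family proteins, the pocket proteins, fell in LTKO GFP against HFD GFP livers. Of 9 measured E2F partner and pocket protein genes, 5 fell and 1 rose in LTKO GFP against HFD GFP livers (6.4% and 6.69% of all named genes), and the median difference was -0.43, against 0.01 over all named genes. The falls were in the pocket proteins Rb1 (-0.59 ± 0.13, adjusted p = 0.00656), Rbl1 (-0.69 ± 0.19, 0.0268) and Rbl2 (-0.43 ± 0.11, 0.0216) and in E2f3 (-0.51 ± 0.15, 0.0434) and E2f5 (-0.55 ± 0.16, 0.0353), all by limma. E2f4, best known for repression together with pocket proteins, rose by 0.54 ± 0.13 (means 5.19 and 4.65; adjusted p = 0.0151). Each of these calls was lost in some alternatives, from 2 of 19 for Rb1 and E2f4 to 11 of 19 for E2f3, and the Rb1 difference was -0.38 with the mean of its clusters.

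With FST288, on separate arrays, 1 of these 9 genes rose and 1 fell between LTKO and HFD livers. Of all named genes 5.05% rose and 5.29% fell there. The median difference of the 9 was 0.05. E2f4 read 5.01 and 5.32 in LTKO FST288 livers, against 4.50, 4.44 and 4.35 in HFD FST288 livers (0.74 ± 0.13; limma, adjusted p = 0.00228). That call did not hold in 2 of 19 alternatives. The E2f4 groups did not overlap with either vector. Rbl2 fell, with a difference of -0.41 ± 0.11 (adjusted p = 0.0347), a call lost in 8 of 19. Between HFD FST288 and HFD GFP livers, 5 of the 9 genes were lower without overlap and 0 higher. Of the 22180 named genes, 2021 were lower and 2062 higher without overlap there. Rb1 (-0.43), Rbl1 (-0.32) and E2f3 (-0.40) were among the 5, while Rbl2 differed by 0.03 and E2f5 by -0.12. These HFD differences were not tested.

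Among the other G1/S cyclins and kinases, Cdk4 and Ccnd3 rose in LTKO livers with either vector. Cdk4, a kinase that D cyclins activate, read 6.54 and 6.46 in LTKO FST288 livers and 6.86 and 6.41 in LTKO GFP livers, against 5.98, 6.05 and 5.94 in HFD FST288 livers and 5.95, 5.61 and 5.88 in HFD GFP livers. Ccnd3, the gene of cyclin D3, a paralogue of cyclin D1, read 5.65 and 5.29 in LTKO FST288 livers and 5.45 and 5.71 in LTKO GFP livers, against 4.92, 4.98 and 4.91 in HFD FST288 livers and 4.68, 4.90 and 4.86 in HFD GFP livers. Every LTKO array lay above every HFD array for both genes. With GFP the log2 differences were 0.82 ± 0.14 for Cdk4 and 0.77 ± 0.14 for Ccnd3 (limma, adjusted p = 0.00157 and 0.00241), called in all 19 alternatives. With FST288 they were 0.51 ± 0.14 and 0.53 ± 0.14 (adjusted p = 0.0337 and 0.0273), calls lost in 8 and 7 of 19. They were the 2 of 7 G1/S cyclins and kinases that were called higher, where 6.69% of all named genes were with GFP and 5.05% with FST288, and none of the 7 was called lower.

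Of 7 inhibitors of cyclin-dependent kinases, Cdkn1a, the gene of the arrest protein p21, rose in LTKO livers with either vector. It read 8.03 and 7.22 in LTKO FST288 livers, 6.80 and 7.55 in LTKO GFP livers, 5.79, 5.79 and 5.78 in HFD FST288 livers and 4.09, 5.09 and 4.35 in HFD GFP livers. LTKO arrays lay above HFD arrays with either vector, and the HFD FST288 arrays lay between the LTKO and the HFD GFP arrays. The difference was 2.66 ± 0.29 with GFP, a 6.31-fold rise (limma, adjusted p = 3.21e-05), and 1.84 ± 0.29 with FST288, a 3.59-fold rise (adjusted p = 0.000732). Cdkn2c, the gene of the CDK4 and CDK6 inhibitor p18, was at 0.54 ± 0.18 with GFP (adjusted p = 0.0731) and rose with FST288 (0.73 ± 0.18, adjusted p = 0.0198), a call lost in 6 of 19 alternatives. Of the 7 inhibitors, 1 was called higher with GFP and 2 with FST288, where 6.69% and 5.05% of all named genes were. With either vector 0 of the 7 were called lower.

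**Figure D3:**
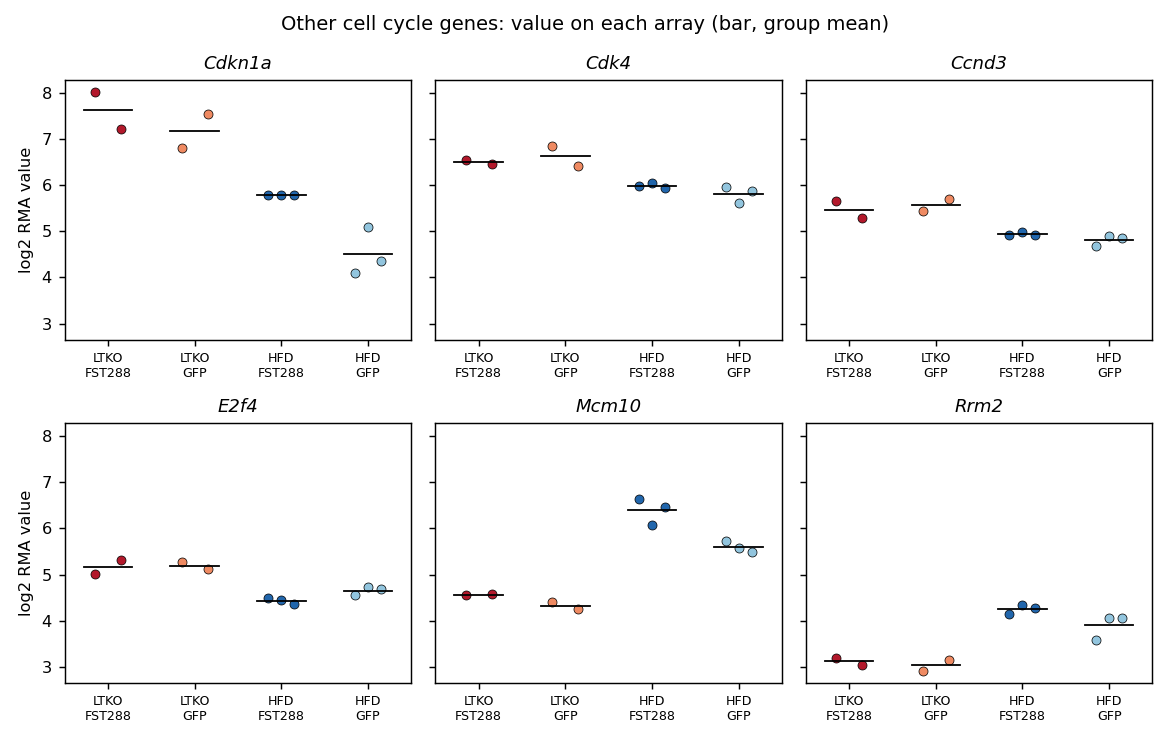
Log2 RMA value (y axis) of Cdkn1a, Cdk4, Ccnd3, E2f4, Mcm10 and Rrm2 on each array, by group (x axis: LTKO FST288, LTKO GFP, HFD FST288, HFD GFP); points are arrays and bars are group means. Cdkn1a, Cdk4, Ccnd3 and E2f4 are higher and Mcm10 and Rrm2 lower on the LTKO arrays than on the HFD arrays.

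DNA replication genes, classical E2F targets, included calls in each direction between LTKO and HFD livers. Of 28 measured genes, 2 rose and 3 fell with GFP, where 6.69% of all named genes rose and 6.4% fell, with a median difference of -0.06 against 0.01 over all named genes. With FST288, 1 rose and 2 fell, where 5.05% of all named genes rose and 5.29% fell, with a median of -0.01 against 0.00. Mcm10, which helps to start replication forks, read 4.56 and 4.57 in LTKO FST288 livers and 4.40 and 4.25 in LTKO GFP livers, against 6.64, 6.07 and 6.46 in HFD FST288 livers and 5.72, 5.58 and 5.48 in HFD GFP livers. Its groups were fully apart between LTKO and HFD livers, and HFD FST288 arrays lay above HFD GFP arrays. The differences were -1.27 ± 0.16 with GFP and -1.83 ± 0.16 with FST288 (limma, adjusted p = 9.48e-05 and 3.88e-06), falls of 2.41-fold and 3.55-fold.

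Rrm2, a subunit of the enzyme that makes deoxynucleotides, read 3.19 and 3.04 in LTKO FST288 livers and 2.91 and 3.15 in LTKO GFP livers, against 4.15 to 4.33 in HFD FST288 livers and 3.59 to 4.05 in HFD GFP livers. LTKO arrays lay below HFD arrays throughout. It fell by 0.87 ± 0.17 on the log2 scale with GFP and by 1.14 ± 0.17 with FST288 (limma, adjusted p = 0.0035 and 0.000488), and by 0.56 and by 0.58 with the mean of its clusters. The subunits of the MCM helicase did not move together with GFP: Mcm7 (0.69 ± 0.14, adjusted p = 0.00387) and Mcm2 (0.70 ± 0.17, 0.0131) rose and Mcm4 (-0.58 ± 0.16, 0.0306) fell, and with FST288 Mcm7 rose (0.64 ± 0.14, 0.00718). With GFP the call was lost in 1 alternative for Mcm7, in 2 for Mcm2 and in 7 for Mcm4, and with FST288 in 3 for Mcm7.

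None of 28 measured G2/M and mitosis genes was called by limma in any of the 3 tested comparisons. At an unadjusted p under 0.05 there was 1 in LTKO FST288 against LTKO GFP livers, 1 in LTKO GFP against HFD GFP livers and 0 in LTKO FST288 against HFD FST288 livers. Over all named genes the shares at that p were 9.98%, 25.2% and 20.9% in the same 3 comparisons. The median of the list was 2.38 to 2.56 on the 10 arrays, below the array medians of named genes. The smallest p in LTKO FST288 against LTKO GFP livers belonged to Top2a, a topoisomerase of dividing cells, at 2.53 and 2.53 against 1.91 and 2.21 (0.47 ± 0.16, adjusted p = 0.339). Between LTKO GFP and HFD GFP livers it was that of the spindle checkpoint gene Bub1b (0.43 ± 0.16, adjusted p = 0.0978).

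The FST288 vector in LTKO livers gave no call in any of these lists. None of their 79 genes passed over all genes by limma, and 4 had an unadjusted p under 0.05, against 9.98% of all named genes. These were E2f5 (0.42 ± 0.17, adjusted p = 0.454), Rbl1 (0.48 ± 0.21, 0.46), Cdkn2c (0.45 ± 0.20, 0.474) and Top2a. Cdkn1a had a difference of 0.46 ± 0.31 (adjusted p = 0.693). Over the 79 genes the median difference was 0.04, against -0.02 over all named genes.

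**Figure D4:**
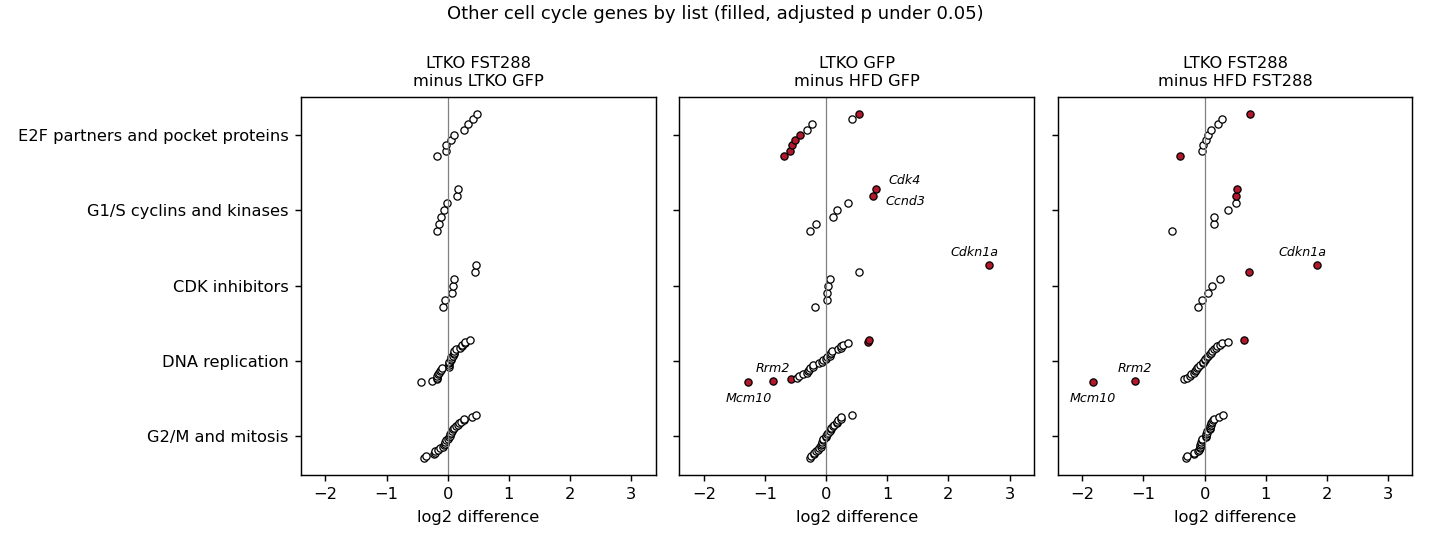
Log2 difference between group means (x axis) of the measured genes of 5 cell cycle lists (y axis; 1 point a gene, sorted within a list) in the 3 tested comparisons; filled points had an adjusted p under 0.05. Calls are absent in LTKO FST288 minus LTKO GFP, and Cdkn1a (2.66 and 1.84) and Mcm10 (-1.27 and -1.83) lie farthest out between LTKO and HFD livers.

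The genes most like E2f8 were picked by r from all named genes without predicted loci. Their r therefore cannot be set against those of the other drivers, which were not picked by r. The 8 with the highest Pearson r to E2f8 over the 10 arrays were the cytochrome P450 gene Cyp4a12a (0.949), Ccdc57 (0.945), the folate carrier gene Slc19a1 (0.944), the mitochondrial carrier gene Slc25a30 (0.939), the cytochrome P450 gene Cyp2c68 (0.929), the flavin monooxygenase gene Fmo1 (0.912), the sulfhydryl oxidase gene Qsox1 (0.909) and the glucuronosyltransferase gene Ugt2b1 (0.906). Cyp4a12a read 7.10 and 6.91 in LTKO FST288 livers, 7.06 and 6.84 in LTKO GFP livers, 7.58, 7.40 and 7.38 in HFD FST288 livers and 6.29, 6.07 and 6.0 in HFD GFP livers. Like E2f8 it was highest in HFD FST288, intermediate in both LTKO groups and lowest in HFD GFP livers. These r describe 10 arrays that fall into 4 groups, and they include the HFD comparison that chose E2f8.

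**Figure D5:**
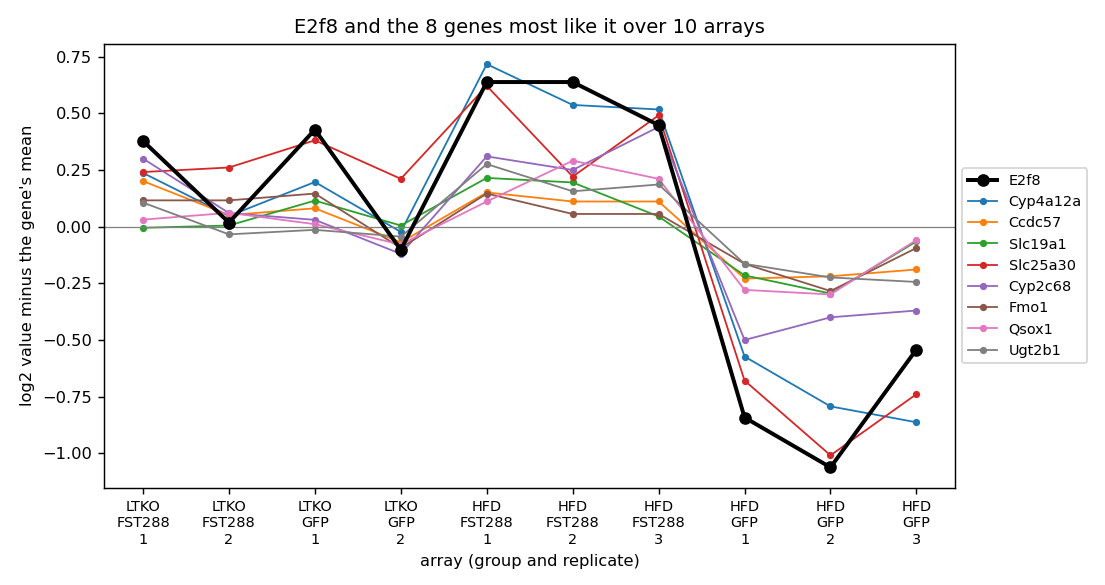
Log2 value minus the gene's mean over the 10 arrays (y axis) for E2f8 (black) and the 8 genes most like it, by array (x axis). All lines lie below 0 on the HFD GFP arrays and above 0 on the HFD FST288 arrays, and E2f8 runs from 4.77 on HFD GFP replicate 2 to 6.47 on 2 HFD FST288 arrays before centring.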

How the data were processed

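The authors deposited log2 values from Affymetrix Expression Console with RMA, per the submitters' processing notes; the log2 scale follows from RMA and from values of 0.64 to 13.21. The version and annotation are not given in the sources used here. Of 41345 clusters, 23521 carry 1 symbol; the brightest cluster by mean over all 10 arrays stood for each of 22180 genes. An array gives no counts, so the number of arrays limits the precision.

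Group means were estimated with limma 3.58.1 (R 4.3.3, eBayes with intensity trend) from all 10 arrays, two-sided, with Benjamini-Hochberg adjustment over 22180 genes and calls at an adjusted p under 0.05. Errors are SE of the fit unless marked SD. Nothing states that arrays came from separate animals, and p-values then cover only the spread among these samples, which may be technical. The procedure was tested on simulated data of independent normal values without outlying arrays, which does not give the error rate in these samples.

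The members and lists were chosen with earlier results of these data known. Named were the members, list genes called or among the 3 smallest p, and the 8 genes most like E2f8, without predicted loci. The alternatives left out each array, used replicate blocks, other normalization, filters and weights, and treated acinar transcripts as a covariate.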

Additional observations from a re-analysis of the deposited data

Results flagged for a closer look

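No gene of the 9 moved in opposite directions with FST288 in LTKO and HFD livers without overlap of the groups. Of the 88 E2F, driver and list genes 5 did (5.68%), against 4.19% of all named genes, and the difference between the backgrounds was not tested for them. The log2 difference of FST288 minus GFP in E2f3 was 0.33 in LTKO livers and -0.40 in HFD livers, and in Rbl1 it was 0.48 in LTKO livers and -0.32 in HFD livers. In Cdc45, a replication fork gene, it was -0.18 in LTKO livers and 0.22 in HFD livers, and in Tyms, the gene of thymidylate synthase, -0.17 in LTKO livers and 0.31 in HFD livers. In Bub1b it was -0.36 in LTKO livers and 0.25 in HFD livers. None of the 5 was called in LTKO livers.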

How the results depend on the processing

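With groups of 2 or 3 arrays, calls near the threshold depend on single arrays. The Wee1 calls held in all 19 alternatives, with differences of -2.90 to -2.60 with GFP and -2.55 to -2.10 with FST288. The number of the 9 genes called in LTKO FST288 against LTKO GFP livers was 0, and 0 to 1 leaving out 1 array (1 without LTKO FST288 replicate 1). In LTKO FST288 against HFD FST288 livers it was 2, and 1 to 2 leaving out 1 array. There it was 1, Wee1, with the replicate block, with the arrays of the 2 groups alone, with quantile normalization, with a gene's clusters averaged, without a variance trend, with the acinar covariate and without both HFD FST288 replicates 2 and 3.

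Over all named genes, 37 were called in LTKO FST288 against LTKO GFP livers, 21 to 237 leaving out 1 array, 0 with the arrays of the 2 groups alone, 16 without a trend, 22 with array weights, 23 with the acinar covariate and 16 without both HFD FST288 replicates 2 and 3. In LTKO GFP against HFD GFP livers 2902 were called, and 1870 to 3037 leaving out 1 array. In LTKO FST288 against HFD FST288 livers 2293 were called, 1533 to 2390 leaving out 1 array, 1124 with the covariate and 939 without both arrays. Of the 9 listed genes, 1 had groups without overlap between HFD FST288 and HFD GFP livers, namely E2f8, which was chosen on this comparison. Of the 22180 named genes, 2062 were higher and 2021 lower without overlap there. The count of the 9 was 1 to 5 leaving out 1 array, 3 with quantile normalization and 4 without both arrays. Shares over all named genes were not taken in these alternatives, and smaller groups separate more readily. These counts are therefore not a result about the 9 genes.

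Some differences that were not called turned sign when 1 array was left out. In LTKO FST288 against LTKO GFP livers E2f8 ran from -0.23 to 0.29, E2f1 from -0.12 to 0.07, Ccna2 from -0.25 to 0.08 and Cdk1 from -0.39 to 0.30. In LTKO GFP against HFD GFP livers E2f1 ran from -0.18 to 0.01 and Cdk1 from -0.07 to 0.24. In LTKO FST288 against HFD FST288 livers Mki67 ran from -0.07 to 0.34, Ccna2 from -0.01 to 0.32 and Cdk1 from -0.26 to 0.43. The cause of these shifts was not tested. HFD samples with the same replicate number did not deviate together, with correlations of -0.01 to 0.01. In LTKO livers the correlation was -0.07 for equal and 0.07 for unlike numbers. With 2 arrays a group the deviations mirror each other, so these are 1 value with opposite signs and cannot decide on pairing. The numbers were not taken as pairs, and the replicate block gave 25, 2475 and 1856 called genes in the 3 tested comparisons.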
